A study of Lolium arundinaceum with 18 samples.

Results

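The chitinases, beta-1,3-glucanases, thaumatin-like proteins and PR-1 proteins of tall fescue leaves were followed across 6 treatments, together with the other unigenes described as pathogenesis-related. A unigene is the longest transcript of a cluster that the assembler put together from the reads. Members were the unigenes whose description holds chitinase, thaumatin, pathogenesis-related or glucan endo-1,3, in any case, leaving out descriptions with the word transcription or transcriptional, and with DN46192_c0_g1, the pathogenesis-related protein singled out in the study, added by name. These words gave 102 of 109684 unigenes, DN46192_c0_g1 among them, and 2 transcriptional activators were dropped. Only 42440 of the unigenes have a description, so members or markers without one were not found, while shares of all unigenes include those without. The members were 34 beta-1,3-glucanases, 28 chitinases, 27 thaumatin-like proteins, 6 PR-1 proteins and 7 other pathogenesis-related proteins.

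Pathogenesis-related proteins are a mixed set of plant proteins, many of them secreted to the cell wall or the vacuole, whose transcripts accumulate after infection and also under drought, salt, cold and wounding. Chitinases cut chitin, the wall polymer of fungi and of insect cuticle. Beta-1,3-glucanases cut fungal wall glucan and also callose, the plant's own glucan, which plugs the plasmodesmata between cells. Thaumatin-like proteins (PR-5, including osmotins) can make fungal membranes leaky, and osmotins accumulate in plants under salt and drought. PR-1 belongs to the CAP family of secreted proteins and its transcript is a long-used marker of the salicylate response, mainly in dicots.

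Tall fescue, a cool-season grass, was grown from seed in pots of peat, vermiculite and perlite. Treatment began once seedlings were established, and sprays were repeated. After 20 days of treatment the leaf RNA of 6 groups was sequenced, with 3 libraries per group and 18 in all. CK plants were sprayed with water and kept at 65 to 75% of field capacity, the water a soil holds after drainage. The groups Si NPs and CNCs were kept at the same moisture and sprayed with silicon nanoparticles at 300 mg/L or cellulose nanocrystals at 100 mg/L. DS plants were kept at 35 to 45% of field capacity, and DS_Si NPs and DS_CNCs plants at that moisture with the same sprays. The detergent Tween-20 was added to the particle sprays, no detergent is named for the water sprayed on CK, and no spray is named for DS. All groups share the species, the soil mix and the leaf sampled. Particle groups are named after the columns of the deposited table, and the study's own table does not always give a level to the same particle. The labels do not say how many plants or pots each library holds, so p-values measure the spread between these libraries.

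Libraries held 16175624 to 26102122 estimated reads. Leaf markers were abundant: 50 mesophyll unigenes (small subunit and activase of Rubisco, chlorophyll a-b binding proteins) summed to 30962 to 80020 TPM per library. No description held the words searched for fungal or for insect or mite markers. Only descriptions were searched, and the member DN132465_c0_g1 has a reviewed best match in an insect. TPM, a length-scaled share of the transcripts in a library, was used to compare unigenes. CK 3 stood apart, since it lay between CK 1 and CK 2 in 100% of the 964 unigenes in which those differed by more than 8-fold, against 0 to 73.3% for the 17 other libraries. Among the members, CK 3 lay between them in 42 of the 53 in which CK 1 and CK 2 differed by more than 2-fold with the higher at 1 TPM or above. Most calls and named values that rest on CK are therefore given with and without CK 3, and without it 75 members were tested. All groups share the estimate of the spread, so CK 3 also enters comparisons that do not use CK. Shares of all unigenes are always those with CK 3 included.

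All members together made up 0.0799 to 0.146% of the TPM of a library. Chitinases were the most abundant family, with 279 to 763 summed TPM, and beta-1,3-glucanases ranged from 130 to 370. Thaumatin-like proteins ranged from 76.5 to 372 summed TPM, the other pathogenesis-related proteins from 31 to 93.9, and PR-1 from 2.82 to 158. PR-1 thus varied by 55.9-fold between its lowest and highest library, or by 16.4-fold without DS_Si NPs 3, the thaumatin-like family by 4.87-fold and the other families by 2.73 to 3.03-fold. Single unigenes carried much of each sum: DN22745_c0_g1 held 57.8% of all chitinase TPM, DN10769_c0_g1 78.1% of PR-1, DN12021_c0_g1 56.8% of the other pathogenesis-related proteins, DN4756_c0_g1 37.7% of the thaumatin-like family and DN1758_c0_g1 18.1% of the glucanases.

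**Figure D1:**
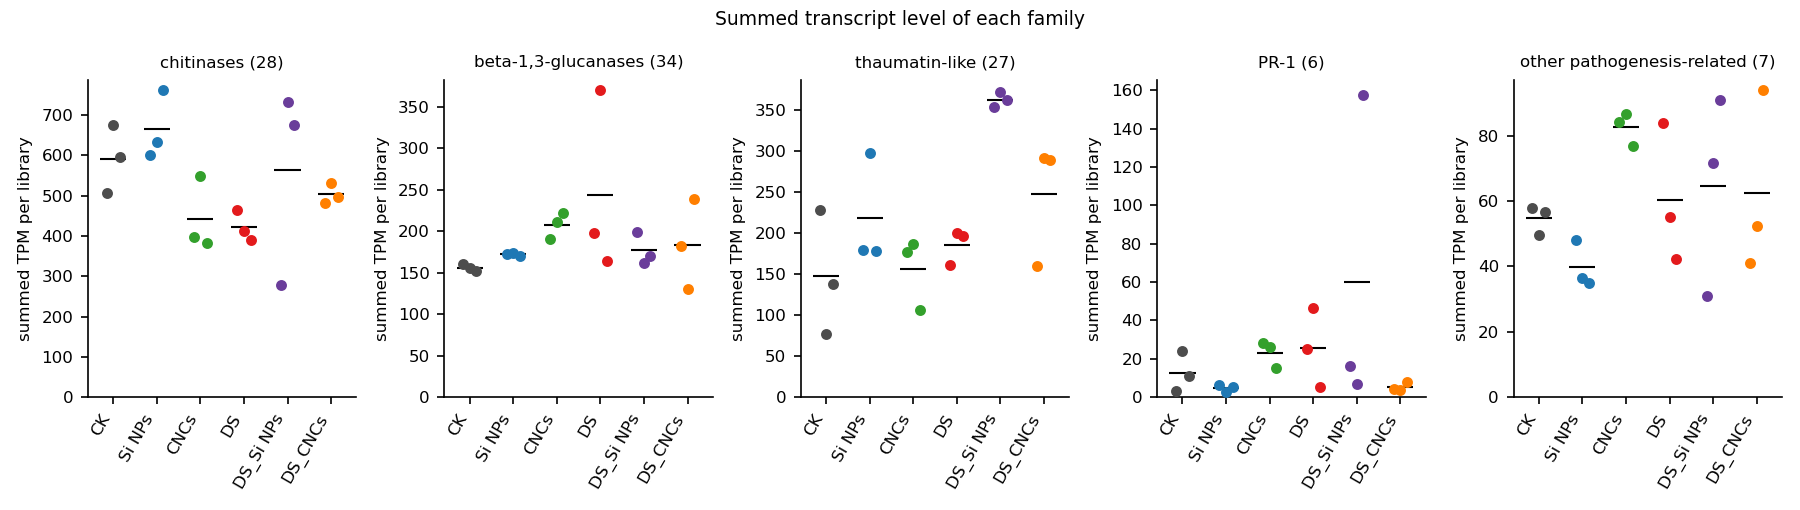
Summed TPM of each family in each library, by group, with the number of members in brackets and its own linear axis from 0 in each panel. Points are libraries and lines are means of 3. The thaumatin-like sums of the 3 DS_Si NPs libraries, 354 to 372 TPM, lie above all other libraries, and 1 DS_Si NPs library reaches 158 TPM in PR-1.

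Most members were low. A mean above 10 TPM over the 18 libraries was reached by 19 members, 27 stayed under 1 TPM, and 47 were listed at 0 in at least 1 library. The members were 203 to 2806 bases long (median 606.5), and 23 were shorter than 300 bases, which is too short for a whole protein of these families. In 10 members more than 50% of the summed TPM came from a single library. The best match was in a grass for 98 members, in another flowering plant for 2, and no species was given for 2. In 35 members the assembler's cluster also held other unigenes, and 20 shared it with another member, so that reads of near-identical copies may have been split between them.

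Counts were tested with edgeR across all unigenes, and 72 of the 102 members passed the filter on low counts. Those left out had a mean of at most 2.65 TPM. A call needed a log2 fold change of more than 2 in either direction besides an adjusted p under 0.05. All log2 fold changes are positive where the group named last is higher. Across the 9 pairwise comparisons 11 members were called, in 16 calls, and the interactions of each particle with drought gave 5 more.

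Under drought stress without particles, DS against CK, 5 of 72 members were called, where 2.01% of all tested unigenes were. Of these, 4 rose and 1 fell, against 1.59% and 0.423% of all unigenes. In edgeR the calls were 4 of 23 glucanases, 1 of 22 chitinases, 0 of 18 thaumatin-like, 0 of 4 PR-1 and 0 of 5 other members, and whether the families differ was not tested. The median log2 fold change was 0.60 over the glucanases, -0.05 over the chitinases and -0.06 over the thaumatin-like proteins, beside 0.00 over all tested unigenes, and without CK 3 that of the glucanases was 0.30. DESeq2 called 12 members (5 glucanases, 3 chitinases and 4 thaumatin-like proteins), where it called 5.8% of all unigenes. Without CK 3 the calls in DS against CK fell to 2, both glucanases.

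Under normal conditions no member was called in Si NPs or CNCs against CK, where 1.03% and 0.377% of all tested unigenes were called. At an unadjusted p below 0.05, 7 members passed in Si NPs and 8 in CNCs, beside 22.4% and 18.2% of all unigenes (4 and 6 members without CK 3), and DESeq2 called 3 and 2 members, where it called 7.56% and 5.15% of all unigenes.

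Under drought stress, DS_Si NPs against DS gave 5 calls (3 higher, 2 lower) among 72 members, with 3.39% of all unigenes called (2.34% higher, 1.04% lower). DS_CNCs against DS gave 5 calls (2 higher, 3 lower), with 5.8% of all unigenes called (3.48% higher, 2.32% lower). DESeq2 called 8 and 9 members, and 9.44% and 12.6% of all unigenes. These comparisons share the 3 DS libraries. The median log2 fold change over the glucanases was -0.49 in DS_Si NPs and -0.84 in DS_CNCs, beside 0.14 and 0.10 over all unigenes. Drought within a particle gave 0 calls, in DS_Si NPs against Si NPs (0.0197% of all unigenes) and in DS_CNCs against CNCs (0.0411%). In these 6 and 14 members had an unadjusted p below 0.05, beside 11.5% and 13.4% of all unigenes, and DESeq2 called 3 members in each, where it called 1.1% and 1.82%.

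**Figure D2:**
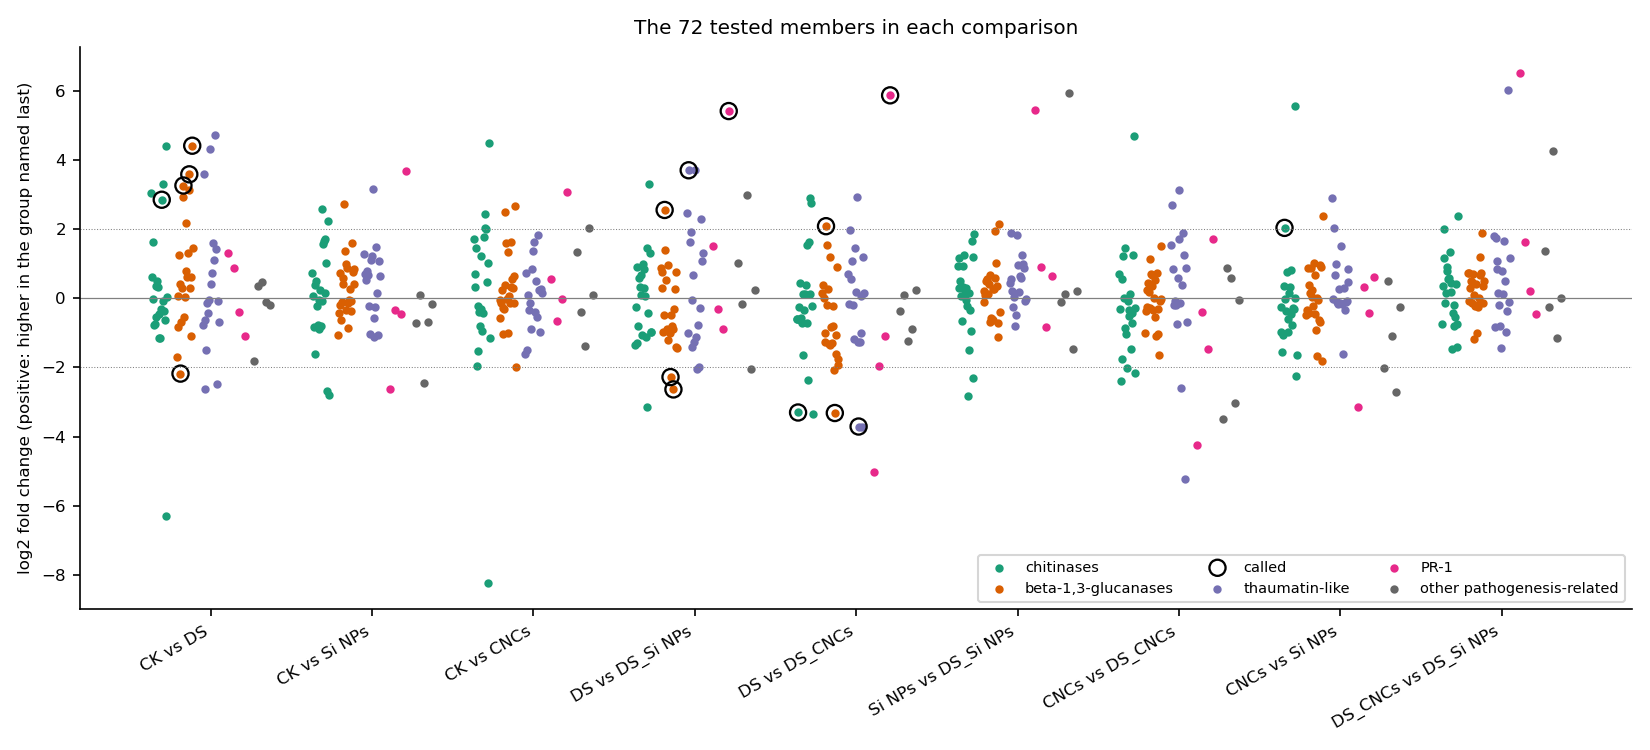
The log2 fold change of each of the 72 tested members in the 9 comparisons, coloured by family, with open circles around called members and dotted lines at 2 and -2. The comparisons with DS hold 15 of the 16 calls, and Si NPs against CNCs holds the other.

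Calls that held with each library left out in turn were made in 2 beta-1,3-glucanases and 1 chitinase, while other glucanase calls were lost in up to 15 of the 18 fits. By domain, 26 of the 34 have the glycoside hydrolase 17 domain that cuts the glucan, 5 have only the X8 domain, which binds callose-type glucan, and 3 have no listed domain. DN4909_c0_g1, glucan endo-1,3-beta-glucosidase 8, read 22.4, 73.8 and 31.4 TPM in DS. In CK it read 4.08, 5.06 and 4.54 TPM, and over all 15 libraries outside DS it ranged from 3.14 to 12.8. The 3 DS libraries thus lay above every other library. The log2 fold change was 3.58 (SE 0.52, adjusted p = 0.00289) in DS against CK. It was -2.64 (SE 0.50, adjusted p = 0.0133) in DS_Si NPs against DS and -3.32 (SE 0.51, adjusted p = 0.00283) in DS_CNCs against DS. The calls in DS against CK and in DS_CNCs against DS held with each library left out in turn, whereas that in DS_Si NPs against DS was lost without DS 2, the library with the highest level, where the value was -1.84. Over the 6 groups, DN4909_c0_g1 had the lowest adjusted p of all members (0.000986), among 12 members called in that test, where 12.6% of all unigenes were. DESeq2 called 29 members and 34.1% of all unigenes in that test.

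DN12856_c1_g1, described as glucan endo-1,3-beta-glucosidase 5-like, ran the other way. It read 0.58, 0.57 and 0.62 TPM in DS, and 1.72 to 4.65 TPM in the 15 other libraries. The droughted plants with particles read 2.85, 4.65 and 2.51 TPM (Si NPs) and 2.32, 2.85 and 2.96 TPM (CNCs), and CK read 3.32, 2.89 and 2.86. The DS libraries overlapped with none of these. DN12856_c1_g1 fell by 2.18 on the log2 scale (SE 0.33, adjusted p = 0.00345) in DS against CK. It rose by 2.55 (SE 0.33, adjusted p = 0.00284) in DS_Si NPs and by 2.08 (SE 0.32, adjusted p = 0.00301) in DS_CNCs against DS. With each library left out in turn, the first pair of calls held, and the last was lost without DS 1 or DS_CNCs 3, at 1.94 to 2.16 over all these fits.

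Both particle effects on DN12856_c1_g1 differed between the water regimes. The interaction was 2.67 (SE 0.45, adjusted p = 0.0248) for Si NPs and 2.36 (SE 0.44, adjusted p = 0.0127) for CNCs. For DN4909_c0_g1 it was -3.88 (SE 0.69, adjusted p = 0.00919) for CNCs, while that for Si NPs, -2.56 (SE 0.68), did not pass (adjusted p = 0.0961). Without CK 3 the value for Si NPs was -2.58 (adjusted p = 0.239). Over all members, 4 were called in the interaction of CNCs with drought and 1 in that of Si NPs, where 1.96% and 0.263% of all unigenes were. DESeq2 called 9 and 4 members, and 6.03% and 3.25% of all unigenes. The called interaction of Si NPs was lost without CK 3, and 2 of the 4 for CNCs remained without it, both in these glucanases.

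DN1758_c0_g1, a glucanase 14-like unigene and the most abundant of the family, read 37.2, 175 and 14.1 TPM in DS and 14, 2.83 and 8.66 in CK. The lowest DS library lay just above the highest CK library, and the log2 fold change of 3.26 (SE 0.87) had an adjusted p of 0.05 after rounding. Without DS 2, which holds 28.3% of its TPM, the value was 1.59, and the call was kept in 3 of the 18 fits that leave out a library. Without CK 3 the value was 3.24 (adjusted p = 0.203). DN1758_c0_g2, from the same assembly cluster and with the same description, read 13.9, 9.57 and 8.41 TPM in DS and 13.8, 20.8 and 17 in CK. It differed among the 6 groups (adjusted p = 0.0298) but had a log2 fold change of -0.54 (SE 0.31, adjusted p = 0.35) in DS against CK. Without CK 3 this value was -0.55, and the difference among the groups did not pass (adjusted p = 0.0752).

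DN6971_c0_g2, which carries the X8 domain, read 0.26, 0.23 and 0.2 TPM in CK and 2.21, 4.96 and 7.06 in DS. All DS libraries lay above all CK libraries, with a log2 fold change of 4.41 (SE 1.1, adjusted p = 0.0381), a call kept in 9 of the 18 fits that leave out a library and lost without CK 3. DN29738_c0_g1, named for the barley glucanase GVI, read 3.01, 5.39 and 3.75 TPM in DS and 1.46, 0.37 and 0.57 in DS_Si NPs. The groups did not overlap, and it fell by 2.28 on the log2 scale (SE 0.58, adjusted p = 0.0344). This call was kept in 11 of the 18 fits that leave out a library and lost without CK 3. DN11210_c0_g1, glucanase 1-like, read 8, 4.9 and 6.64 TPM in DS and 2.89, 3.52 and 3.15 in CK. It differed among the 6 groups (adjusted p = 0.0118), with a log2 fold change of 1.26 (SE 0.26, adjusted p = 0.0166) in DS against CK, under the fold threshold. Without CK 3 this value was 1.22 (adjusted p = 0.104), and the difference among the groups still passed (adjusted p = 0.0305). DN33718_c0_g1, glucanase 12-like, read 6.57, 2.96 and 2.29 TPM in DS and 0.59, 0.54 and 0.57 in CK, and differed among the 6 groups (adjusted p = 0.0442), which was kept in 5 of the 18 fits that leave out a library and lost without CK 3.

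Of the other abundant glucanases, DN10319_c0_g1 read a mean of 47.7 ± 22.2 TPM (SD, n = 3) in CK and 19.9 ± 7.26 in DS, with a log2 fold change of -0.82 (SE 0.23, adjusted p = 0.0542), or -0.79 without CK 3 (adjusted p = 0.19). DN10381_c0_g1, glucanase 5, kept within 10 to 26.3 TPM in all libraries. It was higher in the 3 Si NPs libraries (17.8 to 20 TPM) than in the 3 CK libraries (10 to 14.4), with a log2 fold change of 0.73 (SE 0.26, adjusted p = 0.134), or 0.67 without CK 3 (adjusted p = 0.356).

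**Figure D3:**
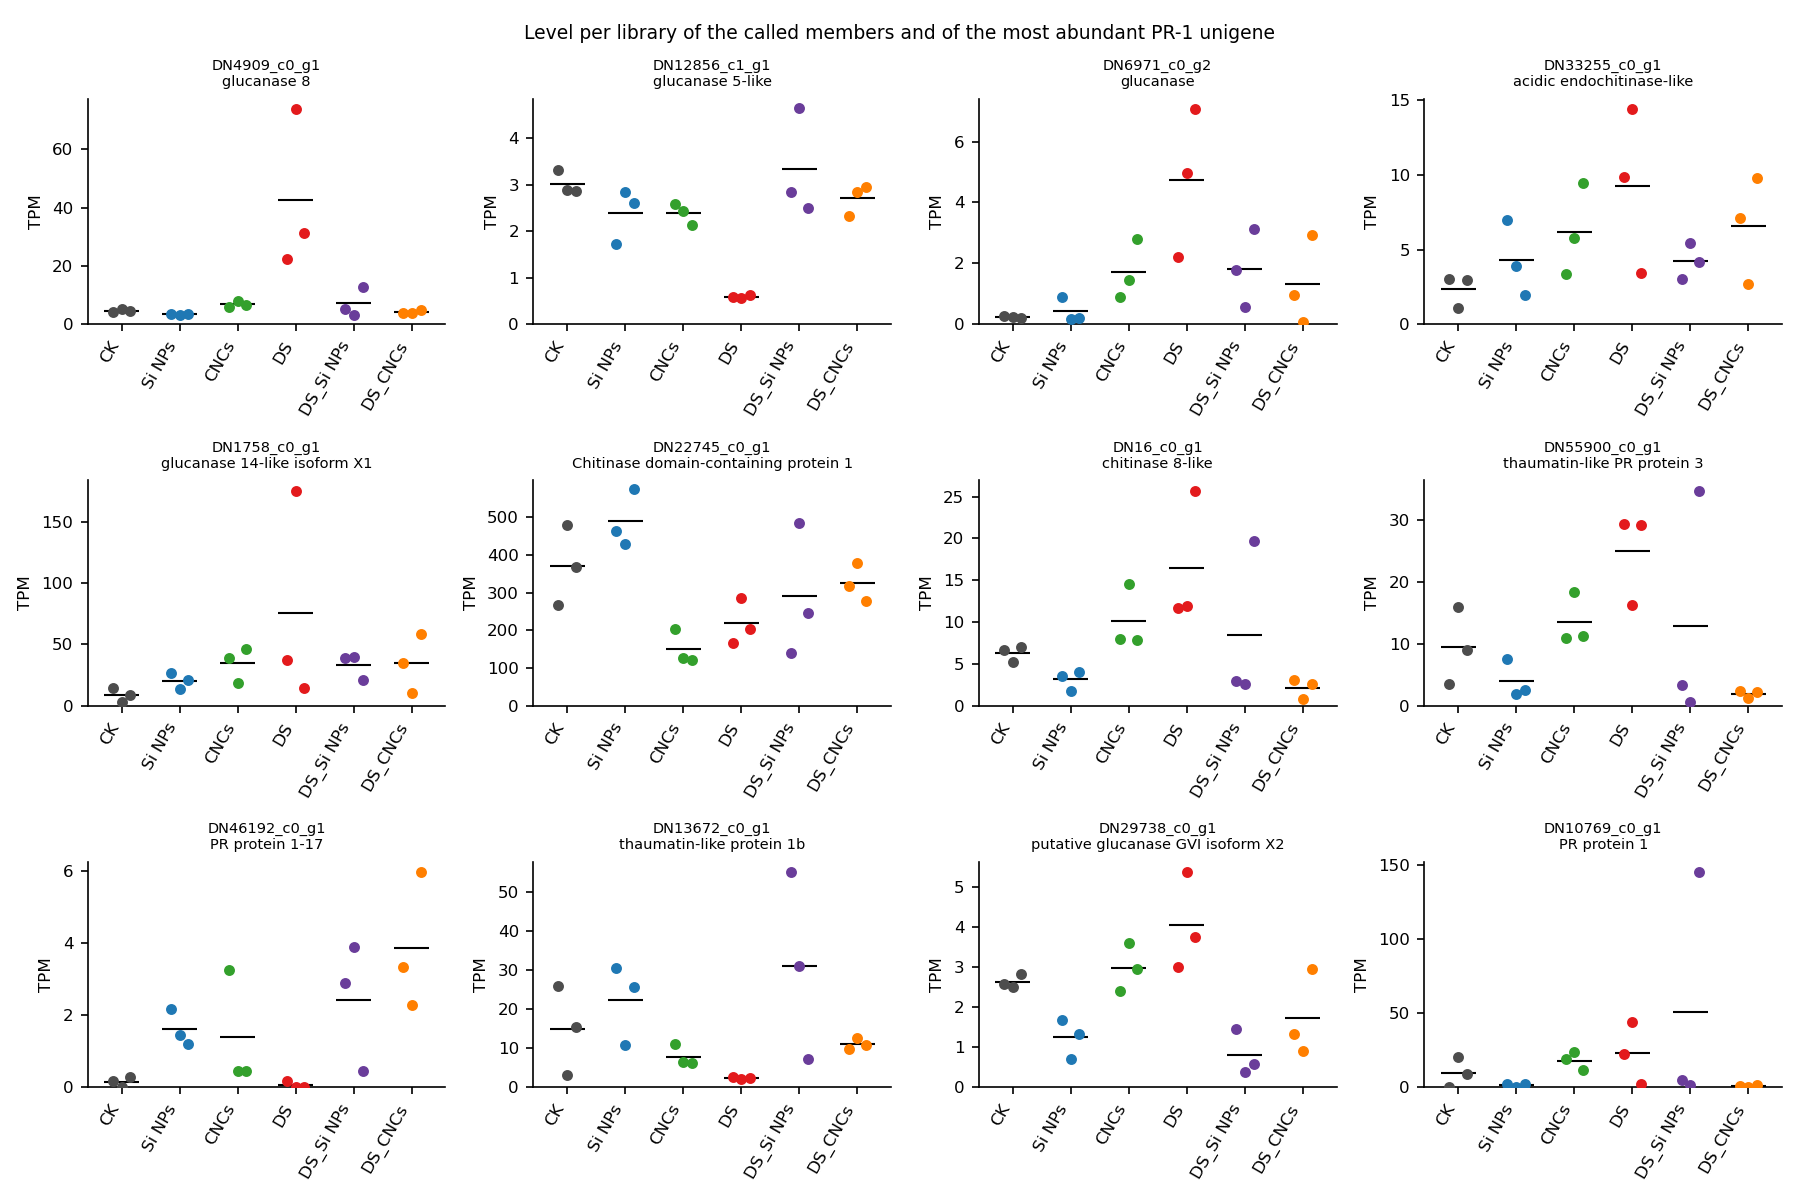
TPM in each library of the 11 members called in a comparison and of DN10769_c0_g1, the most abundant PR-1 unigene, by group, on linear axes from 0. Points are libraries and lines are means of 3. DN4909_c0_g1 and DN12856_c1_g1 set the 3 DS libraries apart from all 15 others in opposite directions, while DN10769_c0_g1 has 1 library at 145 TPM.

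The chitinases fell into 18 with the glycoside hydrolase 19 domain, the plant endochitinase type, 7 with the glycoside hydrolase 18 domain and 3 with another domain or none. The leading unigene, DN22745_c0_g1, is described as chitinase domain-containing protein 1, a glycoside hydrolase 18 protein whose reviewed best match is a frog protein, and it is not one of the classic plant pathogenesis-related chitinases. It read 463, 428 and 575 TPM in Si NPs and 203, 126 and 120 TPM in CNCs, without overlap. Si NPs were 2.03 higher on the log2 scale (SE 0.40, adjusted p = 0.0455), the only call between the particles under normal conditions, where 0.0411% of all unigenes were called. The call was lost in 15 of the 18 fits that leave out a library, CK 3 among them. CK libraries read 267, 480 and 367 TPM, all above CNCs and overlapping with Si NPs, and the log2 fold change of CNCs against CK was -1.54 (SE 0.40, adjusted p = 0.0806), or -1.55 without CK 3 (adjusted p = 0.264). The 50 mesophyll unigenes summed to 30962 to 38434 TPM in CNCs and 46413 to 67860 in Si NPs. Their median log2 fold change was 1.14 in Si NPs against CNCs, beside -0.04 over all unigenes, with 0 of 45 tested called. In CNCs against CK it was -1.39, beside 0.08 over all unigenes. There 5 of 45 were called, all lower, where 0.377% of all unigenes were, and 0 of 47 without CK 3. Their part in the result for DN22745_c0_g1 was not tested. In bulk leaf RNA, fewer cells of a type and less RNA per cell cannot be told apart. Under drought stress no member was called between the particles, nor was any unigene (0.0% of 55979), with 9 members and 9.22% of all unigenes at an unadjusted p below 0.05, and 1 member and 0.795% of all unigenes called by DESeq2.

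DN16_c0_g1, chitinase 8-like, read 11.6, 11.9 and 25.7 TPM in DS and 3.07, 0.76 and 2.56 in DS_CNCs. It fell by 3.31 on the log2 scale (SE 0.69, adjusted p = 0.0111), in all fits that leave out a library. In DS_Si NPs it read 2.94, 2.64 and 19.7 TPM, so that 2 libraries lay below DS and 1 within its range, and the log2 fold change of -1.30 (SE 0.64) was not called (adjusted p = 0.211). In watered plants CNCs read 7.91, 14.6 and 7.85 TPM, above CK at 6.7, 5.22 and 7.03. This difference was not called, and without CK 3 the log2 fold change was 0.75 (SE 0.74, adjusted p = 0.725). The interaction of CNCs with drought was -4.00 (SE 0.93, adjusted p = 0.0333) and was lost without CK 3.

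DN33255_c0_g1, an acidic endochitinase-like unigene of glycoside hydrolase 18, read 9.85, 14.4 and 3.41 TPM in DS and 3.05, 1.07 and 2.98 in CK. The groups did not overlap, with a log2 fold change of 2.84 (SE 0.73, adjusted p = 0.0431), and the call was lost in 14 of the 18 fits that leave out a library, CK 3 among them. Of the abundant glycoside hydrolase 19 members, DN2378_c1_g1 (chitinase 2) read a mean of 46.8 to 88 TPM over the groups, DN16_c0_g2 (chitinase 2) 19.7 to 77 and DN24560_c0_g1 (chitinase 2) 13.9 to 57.4, and none was called in any comparison. In the order of their means, neighbouring groups overlapped in all 3 members. DN16_c0_g2 read 35.5, 121 and 75.1 TPM in CNCs and 32.7, 10.8 and 25.9 in CK, without overlap but with an adjusted p of 0.291, or 0.519 without CK 3. The cluster of DN2378_c1_g1 also holds DN2378_c2_g1, described as a root-specific lectin, a chitin-binding protein of cereals, at 13.4 to 202 TPM together with the 5 other unigenes of the root list.

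**Figure D4:**
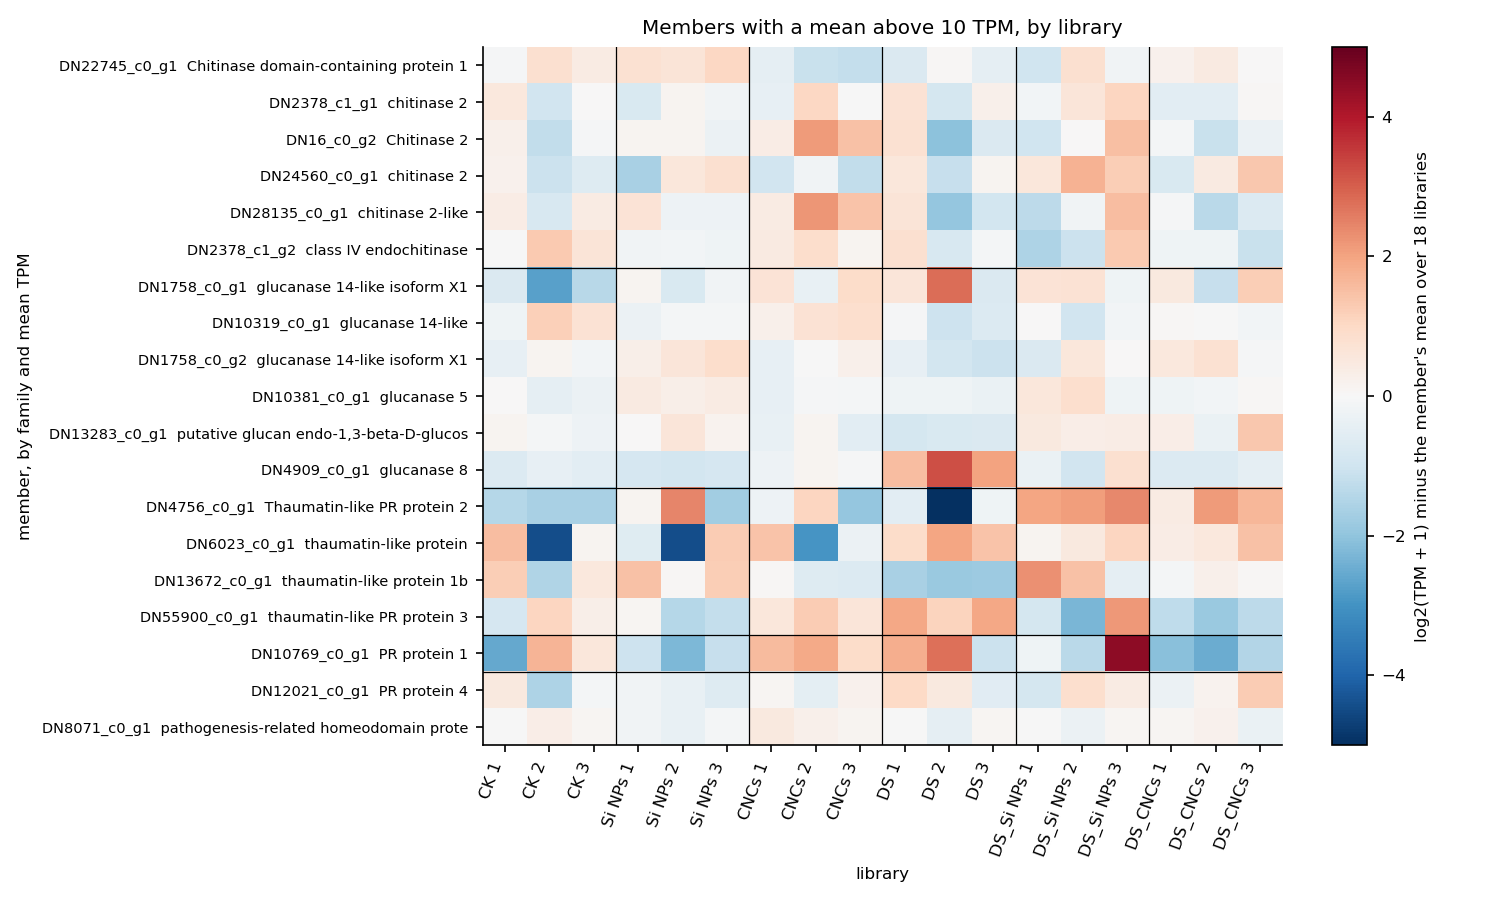
The 19 members with a mean above 10 TPM in each library, as log2(TPM + 1) minus the member's mean over the 18 libraries, with families and groups separated by lines. Red is above the mean and blue below it. Single dark cells, such as DN4756_c0_g1 in DS 2 and DN10769_c0_g1 in DS_Si NPs 3, mark libraries that differ from the other replicates of their group.

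Among the thaumatin-like proteins, 23 of the 27 carry the thaumatin domain. DN4756_c0_g1, a thaumatin-like pathogenesis-related protein 2 whose reviewed best match is an oat protein, was the most abundant. It read 167, 182 and 226 TPM in DS_Si NPs and 56.7, 189 and 135 in DS_CNCs, against 28.7, 0.38 and 36.7 in DS and 15.1, 13.1 and 13.2 in CK. Both groups of droughted plants with particles lay above DS and CK without overlap. The log2 fold changes against DS, 3.69 (SE 1.19, adjusted p = 0.0738) and 2.92 (SE 1.15, adjusted p = 0.111), did not pass, and DESeq2 called both (adjusted p = 0.00565 and 0.0273). In Si NPs it read 46.8, 234 and 12.1 TPM, so that 1 library alone reached the level of the DS_Si NPs libraries. The high thaumatin-like sums in DS_Si NPs rested on it: without it the family read a mean of 171 ± 29.8 TPM (SD, n = 3) in DS_Si NPs and 164 ± 33.9 in DS.

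DN13672_c0_g1, thaumatin-like protein 1b, read 2.72 TPM in DS 1, 2.25 in DS 3 and slightly less in DS 2, below every library of DS_Si NPs (55.2, 31 and 7.26) and of DS_CNCs (9.81, 12.7 and 10.8). It rose by 3.70 on the log2 scale (SE 0.79, adjusted p = 0.0193) in DS_Si NPs against DS, while the value in DS_CNCs against DS was 1.96 (SE 0.74) and did not pass (adjusted p = 0.101). The difference between the particles was not called (adjusted p = 0.493). The DS libraries also lay below every other library of the series, CK and the watered particle groups included. In DS against CK edgeR did not call this member, and without CK 3 the log2 fold change was -2.66 (SE 0.84, adjusted p = 0.182). DESeq2 called it there (-2.60, adjusted p = 0.00613). The call in DS_Si NPs was lost without DS_Si NPs 2 and without any 1 DS library.

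DN55900_c0_g1, thaumatin-like pathogenesis-related protein 3, ran against DN4756_c0_g1. It read 29.2, 16.2 and 29.2 TPM in DS and 2.34, 1.19 and 2.22 in DS_CNCs, without overlap, and fell by 3.71 on the log2 scale (SE 0.81, adjusted p = 0.0134), a call lost without DS_CNCs 2. In DS_Si NPs it read 3.38, 0.62 and 34.7 TPM, so that the highest and the lowest library of the series fell into 1 group. The interaction of CNCs with drought was -4.20 (SE 1.07, adjusted p = 0.0476) and was lost without CK 3. DN13534_c0_g1, another thaumatin-like protein 1b, read 9.4, 14.6 and 8.64 TPM in DS and 1.01, 0.44 and 0.74 in CK, and differed among the 6 groups (adjusted p = 0.0446), which was kept in 4 of the 18 fits that leave out a library and lost without CK 3. DN6023_c0_g1, a fragment of 308 bases, was listed at 0 in CK 2 and Si NPs 2 and read 62.4 TPM in CK 1 and 51.9 in Si NPs 3. Its groups overlapped throughout, and its lowest adjusted p was 0.621.

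PR-1 had 6 members, of which 5 carry the CAP domain. Among these 5, DN132465_c0_g1 has its best match in the plant Wolffia australiana, but its reviewed best match is a venom allergen of the insect Solenopsis invicta. It was listed at 0 in 16 libraries and held 93.7% of its TPM in DS_Si NPs 1, at 5.04 TPM. Whether it is a plant transcript was not tested. DN22441_c0_g1, although described as PR-1, carries the domain of the PR-10 and Bet v 1 family. DN10769_c0_g1, matching barley PR-1, was the most abundant. It read 4.73, 1.61 and 145 TPM in DS_Si NPs, 22.3, 44.1 and 2.14 in DS, 0.12, 20.5 and 8.82 in CK and 18.7, 23.4 and 11.3 in CNCs. It was low in all libraries of Si NPs (0.38 to 2.25 TPM) and of DS_CNCs (0.19 to 1.39). The log2 fold change of DS_CNCs against DS was -5.02 (SE 1.76, adjusted p = 0.0801), and no comparison passed in edgeR. Between the particles under drought the value was 6.52 (SE 1.86, adjusted p = 0.345), while DESeq2 gave 6.54 with an adjusted p of 0.00156. DS_Si NPs 3 alone holds 46.8% of its TPM.

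DS_Si NPs 3 was also the highest library for DN82012_c0_g1, a PR-1 fragment at 11.2 TPM there and 0 to 4.08 elsewhere that was too low to test. DN19384_c0_g1, a barwin-type PR-4 unigene that was tested, also had its highest level in DS_Si NPs 3, at 18.3 TPM against 0 to 1.31 elsewhere. It was named here after its values were seen. The highest level of 11 members lay in DS_Si NPs 3, that of 13 in CNCs 2 and of 10 in DS 2, against 2 to 8 in each of the 15 other libraries. The same count over all unigenes was not made, so these numbers describe the libraries and are no result about the members.

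DN46192_c0_g1, pathogenesis-related protein 1-17, was listed by the study for its response in droughted plants, so its contrasts with DS are a description and no independent evidence. It read 0.17, 0 and 0 TPM in DS (2 reads in all), 2.89, 3.9 and 0.44 in DS_Si NPs and 3.34, 2.27 and 5.96 in DS_CNCs. Per library size this is 47.9 times (95% exact interval 12.9 to 401) and 76.1 times (20.7 to 634) the DS level, and these intervals cover counting error only. The fitted log2 fold changes, 5.41 (SE 1.36, adjusted p = 0.0339) and 5.86 (SE 1.37, adjusted p = 0.0184), depend on how 0 counts are handled, and both were lost without DS 2 and without DS 3, the former also without DS 1, CK 3 or DS_Si NPs 2. In watered plants it read 0.16, 0 and 0.27 TPM in CK (5 reads), 2.17, 1.44 and 1.2 in Si NPs and 3.25, 0.46 and 0.46 in CNCs. Both particle groups lay above CK without overlap, at log2 fold changes of 3.66 (SE 1.22, adjusted p = 0.114) and 3.06 (SE 1.21, adjusted p = 0.201), which did not pass. Without CK 3 these values were 4.38 (adjusted p = 0.272) and 3.76 (adjusted p = 0.38), and DESeq2 called that of Si NPs (3.76, adjusted p = 0.0204). Which particle each level belongs to rests on the column names of the deposited table. The study's table gives this member's mean of 2.41 TPM to DS_CNCs and that of 3.86 to DS_Si NPs, the reverse of the deposited columns. In watered plants that table and the deposited columns agree for this member, with means of 1.60 TPM in Si NPs and 1.39 in CNCs. For the light-harvesting unigene DN41235_c0_g2 it gives 64.0 TPM to watered CNCs plants, a mean that the deposited columns give to Si NPs. Its other values for particle groups match no deposited mean of that unigene. Which particle a level belongs to is therefore uncertain, and these few values cannot show whether whole groups were exchanged.

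The other pathogenesis-related proteins gave no call in any comparison in edgeR, while DESeq2 called DN19384_c0_g1 in DS_Si NPs against Si NPs (log2 fold change 6.07, adjusted p = 0.0222) and DN11379_c0_g1 in DS_CNCs against CNCs. DN12021_c0_g1, a barwin-domain PR-4, read 9.94 to 76.3 TPM, with overlap between neighbouring groups in the order of their means. DN8071_c0_g1, a pathogenesis-related homeodomain protein, a class of nuclear regulators, was the steadiest, at 8.67 to 17.6 TPM. DN11379_c0_g1, named for the potato protein STH-21 of the PR-10 type, read 19.8, 33.2 and 9.21 TPM in CNCs and 0.63, 1.96 and 1.83 in DS_CNCs, with a log2 fold change of -3.50 (SE 1.04, adjusted p = 0.203) in edgeR and -3.46 (adjusted p = 0.0182) in DESeq2. DN4440_c1_g1, a shorter STH-21 fragment of 227 bases, read 12.1, 16.6 and 17.3 TPM in CNCs, above all other groups (0 to 7.1 TPM), and was not called against CK (log2 fold change 2.02, SE 1.31, adjusted p = 0.435, or 2.11 and 0.643 without CK 3).

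Related genes were counted with the same test. In the chitin perception list of 8 unigenes, receptors such as CERK1 and CEBiP that detect chitin fragments, 0 of 6 tested were called in any pairwise comparison, and 2 differed among the 6 groups, where 12.6% of all unigenes did, and 0 of 7 tested without CK 3. The CEBiP unigene DN1801_c0_g1 read a mean of 53.5 ± 8.38 TPM (SD, n = 3) in DS, against 25.6 ± 11.6 with Si NPs and 22.5 ± 2.32 with CNCs under drought. In the salicylate list of 25, 0 of 12 tested were called in a pairwise comparison and 1 differed among the groups, and none of 14 tested without CK 3. Of 18 other antimicrobial proteins, 14 were tested, and 3 were called in DS_Si NPs (2 higher, 1 lower) and 3 in DS_CNCs (all lower) against DS, where 3.39% and 5.8% of all unigenes were called. The thionin DN867_c0_g1, a small membrane-active peptide, led this list with a mean of 8046 ± 4052 TPM in DS and 609 ± 290 in DS_CNCs and fell by 3.63 on the log2 scale (SE 0.66, adjusted p = 0.00605). The median log2 fold change of this list in DS_CNCs against DS was -1.77, beside -0.31 over the 72 members and 0.10 over all unigenes.

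The 11 unigenes of the senescing-leaf list, summed, were lowest in the DS group. The sum was 153 to 186 TPM in DS and 277 to 289 in CK, and with particles under drought 224 to 258 (Si NPs) and 219 to 284 (CNCs). The median log2 fold change of the 8 tested was -0.19 in DS against CK, with 1 called higher and 1 lower, where 2.01% of all unigenes were called. These were STAY-GREEN DN9233_c0_g1, a factor in chlorophyll breakdown, which rose by 2.47 on the log2 scale (SE 0.56, adjusted p = 0.0242), and the cysteine protease SAG39-like DN8170_c0_g1, which dropped by 5.04 (SE 0.67, adjusted p = 0.00191). Without CK 3 the former did not pass (adjusted p = 0.132) and the latter did (adjusted p = 0.0125). The same pair was called against DS in both DS_Si NPs and DS_CNCs, with the opposite sign. Their part in the changes of the glucanases was not tested.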

How the data were processed

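Leaf RNA of 18 libraries was sequenced. Reads were trimmed and assembled by the authors into unigenes, with cutadapt and FastQC named for the reads and Salmon for quantification in the submitters' processing notes. The authors deposited estimated counts and TPM for 109684 unigenes, with descriptions, and 452055 of the estimated counts were not whole. Estimated counts were rounded, and TPM, which the authors computed from them, served for levels only. Salmon shares reads among similar unigenes, so near-identical members are uncertain.

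Counts were filtered (filterByExpr), scaled by TMM and fitted with 6 group means in edgeR 4.0.16 (R 4.3.3), using its quasi-likelihood test with Benjamini-Hochberg adjustment over 55979 unigenes. Calls used the study's thresholds, a log2 fold change of more than 2 in either direction with an adjusted p under 0.05. The test among all 6 groups used the adjusted p alone. An exact test of 3 against 3 libraries cannot go below 0.1. SE is the log2 fold change over the root of F. Alternatives were DESeq2 1.42.0, other size factors, no filter, a replicate block, the adjusted p alone and each library left out. The fit was tested on simulated counts for DS_Si NPs against DS. It called 56%, 50%, 64% and 100% of log2 changes of 2.5, 3, 4 and 6, and 1 of its 136 calls was false. Changes above the fold threshold can thus go uncalled.

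The members, lists and tests were chosen with earlier results of these data known. Named members were DN46192_c0_g1, the 4 with the highest mean TPM in each family, up to 6 called in each direction per comparison with CK or DS or of drought within a particle, all those called between particles or in an interaction, and the 6 with the lowest adjusted p among the 6 groups. DN13534_c0_g1, DN19384_c0_g1 and DN33718_c0_g1 were named after their values were seen. List words were matched from the start of a word. No sequences were used here.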

Additional observations from a re-analysis of the deposited data

Results flagged for a closer look

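In 4 members the effect of CNCs against no particle differed between drought and normal conditions by a test of the interaction in edgeR: DN4909_c0_g1 (-3.88 on the log2 scale, adjusted p = 0.00919), DN12856_c1_g1 (2.36, adjusted p = 0.0127), DN16_c0_g1 (-4.00, adjusted p = 0.0333) and DN55900_c0_g1 (-4.20, adjusted p = 0.0476). The effect of Si NPs differed in DN12856_c1_g1 (2.67, adjusted p = 0.0248). The first pair held with each library left out in turn, while DN16_c0_g1 was kept in 8, DN55900_c0_g1 in 2 and the Si NPs interaction in 10 of 18 such fits, and these 3 were lost without CK 3.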

How the results depend on the processing

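The 3 libraries per group, and a CK 3 that lay between CK 1 and CK 2, limit the comparisons, and members with few reads could not be tested. Numbers of called members changed with the tool. DESeq2 called 12 in DS against CK, 3 in Si NPs and 2 in CNCs against CK, 8 in DS_Si NPs and 9 in DS_CNCs against DS, 3 in DS_Si NPs against Si NPs, 3 in DS_CNCs against CNCs, 1 between the particles under drought, 29 among the 6 groups, and 9 and 4 in the interactions of CNCs and Si NPs with drought. Without the filter on low counts, 2 were called in DS against CK, 3 in DS_Si NPs against DS and 0 in Si NPs against CNCs. With RLE size factors 0 were called in Si NPs against CNCs, and by the adjusted p alone 8 in DS_CNCs against DS. No shares of all unigenes are set beside the counts under settings other than DESeq2, or beside those below with a library left out or a block. Such counts show how the calls depend on the setting and are no result about the members.

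With each library left out in turn, the calls ranged from 2 to 7 in DS against CK, 1 to 8 in DS_Si NPs and 4 to 6 in DS_CNCs against DS, 0 to 1 in Si NPs against CNCs, 0 to 2 and 2 to 5 in the interactions of Si NPs and CNCs, and 3 to 14 among the 6 groups. They were 0 to 0 in Si NPs and in CNCs against CK, in drought within either particle and between the particles under drought. Of 462 values of the 21 calls (18 fits without a library, RLE size factors, no filter, DESeq2 and the block), 0 reversed and 120 no longer passed, 109 of these with a library left out and 7 without the filter, an alternative for single members that was chosen after seeing the data.

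No clear pairing by replicate number was seen: deviations of same-numbered libraries correlated at -0.095 to 0.2. In 26 of 90 comparisons of a library with another group its own number correlated best. The labels do not say whether same-numbered libraries share anything besides the number. With a replicate block 3 members were called in DS against CK.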
